A study of Mus musculus with 12 samples.

Results

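The genes described here are 10 negative regulators of inflammation, chosen by symbol from the 43280 genes of the deposited table. They fall into 4 groups by role. Zfp36, Zfp36l1 and Zfp36l2 bind AU-rich elements of mRNA, Zc3h12a and Zc3h12c are endoribonucleases of the Regnase family, Tnfaip3, Tnip1 and Tnip3 encode the ubiquitin editor A20 and its ABIN partners, and Cyld and Otud1 are deubiquitinases. All 10 were in the table and all 10 passed the filter on low values, with a level of at least 7.15 CPM, the read count scaled to a common library total, in every library.

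RNA-seq was performed on bone marrow-derived macrophages (BMDM) of wild type (wt) and Treml4-/- mice of the C57BL6 background, the latter lacking a receptor-like protein of the TREM family in all cells. Bone marrow cells of both genotypes were grown in medium with 20 ng/ml M-CSF, a growth factor that drives macrophage differentiation. After 6 days they received vehicle (M0), or 100 ng/ml bacterial lipopolysaccharide (LPS) for 8 h (M1-8 h) or 12 h (M1-12 h). Each of the 6 conditions had 2 biological replicates, 12 libraries in all. The labels do not say whether replicates came from separate mice, so p-values measure the spread between these samples, which may be technical. In such bulk samples, fewer cells of a type and less RNA per cell cannot be told apart.

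Inflammatory mRNAs are short-lived because proteins that bind their 3′ untranslated region (UTR) bring in enzymes that remove the poly(A) tail or cut the message. Zfp36 (tristetraprolin) binds AU-rich elements and recruits the CCR4-NOT deadenylase, while Regnase-1, the product of Zc3h12a, cuts stem-loops in cytokine mRNAs. Upstream, A20 and its partners edit the ubiquitin chains that carry the signal from Toll-like receptors to NF-kB, and CYLD removes such chains. Several of these genes are themselves targets of NF-kB, so that the brake is made by the signal it limits.

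The libraries held 48008751 to 58500792 reads on genes, so that 1 read was worth 0.0171 to 0.0208 CPM. Treml4 had 198 to 663 reads in the 6 wt libraries and 0 reads in the 6 Treml4-/- libraries, and a count of 0 allows up to 3 reads. Macrophage markers were abundant, the 6 of 7 listed markers found in the table summing to 8113 to 25435 CPM. Neutrophil and granulocyte precursor markers summed to 43.2 to 137 CPM, dendritic cell markers to 0.629 to 21.9 CPM and fibroblast markers to at most 2.39 CPM. T cell and B cell markers reached at most 0.309 CPM in any library. The first principal component, with 88.0% of the variance, separated M0 from LPS libraries, and the second, with 8.55%, separated 8 from 12 h.

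Sequences of 2 kinds bear on these genes, and both were read from the reference of the build the files use. The first is the NF-kB consensus in the promoter, since NF-kB is the factor that LPS activates. RefSeq promoters (GRCm38.p6, windows of 300 bases around the start) were found for 9 of the 10 members, 11 promoters in all, and 4 of the 11, each of another gene, held a match on either strand. Among all 32851 promoters of the same length 4.505% held one, and among those of genes tested here 5.384%. The stretch of 160 bases upstream of the start is given for these 4 members, 5′ to 3′ on the strand of the gene, with the matches in capitals. It lies at chr10:19015411-19015570 on the minus strand for Tnfaip3, chr6:65590238-65590397 on the plus strand for Tnip3, chr11:54962941-54963100 on the minus strand for Tnip1 and chr8:88696868-88697027 on the plus strand for Cyld. For Tnfaip3 and Tnip3 the stretch lies inside the span of the gene in GENCODE M21, which holds earlier starts.
Tnfaip3: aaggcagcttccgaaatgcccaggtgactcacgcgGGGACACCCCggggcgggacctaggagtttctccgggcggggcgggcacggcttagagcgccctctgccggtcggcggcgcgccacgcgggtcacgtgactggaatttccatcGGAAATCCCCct
Tnip3: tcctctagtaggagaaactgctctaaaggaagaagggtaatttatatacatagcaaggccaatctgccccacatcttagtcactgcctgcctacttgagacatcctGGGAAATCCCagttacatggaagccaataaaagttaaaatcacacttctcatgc
Tnip1: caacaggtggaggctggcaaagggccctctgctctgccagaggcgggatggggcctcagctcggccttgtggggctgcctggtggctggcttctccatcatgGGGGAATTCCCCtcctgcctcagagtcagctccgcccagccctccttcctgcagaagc
Cyld: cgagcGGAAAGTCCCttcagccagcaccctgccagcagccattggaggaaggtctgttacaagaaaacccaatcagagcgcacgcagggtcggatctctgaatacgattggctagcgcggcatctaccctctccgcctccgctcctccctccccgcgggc

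Tnfaip3 held 2 matches, the nearer ending 3 bases before the start. The capitals in Tnip1 cover 3 overlapping matches. Of these 4 genes, Tnfaip3 had the largest rise of the 10 at M1-8 h, and Tnip1 and Cyld the smallest positive differences. The AP-1 motif TGANTCA was found in 2 of the 11 promoters (Tnfaip3 and Zfp36l1), against 7.808% of all promoters and 5.267% of those of genes tested. The cyclic AMP element TGACGTCA was found in none of the 11, against 1.79% and 3.101%. The GC box GGGCGG was found in 7 of the 11, against 35.658% of all promoters and 62.202% of those of genes tested. TATAAA was found in 3 of the 11, against 13.616% and 6.885%.

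The second kind of sequence is the AU-rich heptamer TATTTAT in the 3′ UTR, the core of the element that Zfp36 proteins bind. In the GENCODE M21 transcript with the longest coding part, 7 of the 10 members held at least 1 heptamer (Zfp36, Zfp36l1, Zfp36l2, Zc3h12c, Tnfaip3, Cyld and Otud1), against 27.576% of the 10509 tested genes with a 3′ UTR. The median 3′ UTR was 1489 bases in the members and 956 bases in all tested genes. Windows of 30 bases are given for the pair of Zfp36 genes that moved most in opposite directions and for Tnfaip3, with the heptamer in capitals and bases counted from the start of the 3′ UTR.
Zfp36, bases 567 to 596: gggcccttTATTTATgacgacttTATTTAT
Zfp36l2, bases 800 to 829: caatatgaaaaactatttaactTATTTATt
Tnfaip3, bases 948 to 977: ttTATTTATtatgaacttccaagttattta

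Zfp36 held 3 heptamers in a 3′ UTR of 774 bases, and Zfp36l2 held 3 in 1822 bases. Tnfaip3 held 2 in 1821 bases, while Tnip1, Tnip3 and Zc3h12a held none. A match is a description of these letters and not a measured binding site.

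The first comparison asks how LPS changed these brakes, taking both genotypes together. At M1-8 h 7 of the 10 genes were higher than at M0 (Zfp36, Zc3h12a, Zc3h12c, Tnfaip3, Tnip1, Tnip3 and Otud1), 2 were lower (Zfp36l1 and Zfp36l2), and Cyld did not pass. Among all 12086 genes tested 17.1% were called higher and 59.8% lower, a call being an adjusted p under 0.05 (limma with Benjamini-Hochberg adjustment) with a change of 1.4-fold or more. The median log2 difference was 1.34 over the 10 genes and -0.72 over all genes tested. At M1-12 h 7 were higher (Cyld in place of Tnip1) and 1 was lower (Zfp36l2), against 16.3% and 60.3% of all genes, with a median of 0.82 against -0.76.

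The scale of CPM matters for these directions. CPM divides by the library total, and on that scale the typical gene fell by 0.72 at M1-8 h and by 0.76 at M1-12 h on the log2 scale. Scaling by the median of ratios moved these all-gene medians to -0.04 at both times. The split of calls then became 3762 higher and 3791 lower at M1-8 h, in place of 2070 and 7225, and 3947 and 3942 at M1-12 h, in place of 1965 and 7284. Quantile normalization gave 3362 higher and 4342 lower at M1-8 h, then 3594 higher and 4338 lower at M1-12 h. Values are therefore given on the CPM scale and, where it matters, relative to the median of all genes. Marker lists moved with LPS too. The macrophage sum was 18630 to 25435 CPM at M0, 8395 to 11112 CPM at M1-8 h and 8113 to 8921 CPM at M1-12 h. Lyz2 and Csf1r carried this sum and were lower at M1-8 h (-1.31 and -2.37), while Mertk and Fcgr1 were higher (3.01 and 4.22), 2 of 6 tested markers being higher and 3 lower. The neutrophil sum was 43.2 to 137, 67.5 to 103 and 46.3 to 64.8 CPM, with 5 of 6 tested markers lower and 1 higher at M1-12 h, and the dendritic cell sum rose from at most 1.12 CPM at M0 to 8.09 to 18.8 CPM at M1-8 h. That rise was in Ccr7, the only tested marker of its 3, while Flt3 and Zbtb46 stayed at or below 0.713 and 0.337 CPM in every library. Their part in the results was not tested.

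**Figure D1:**
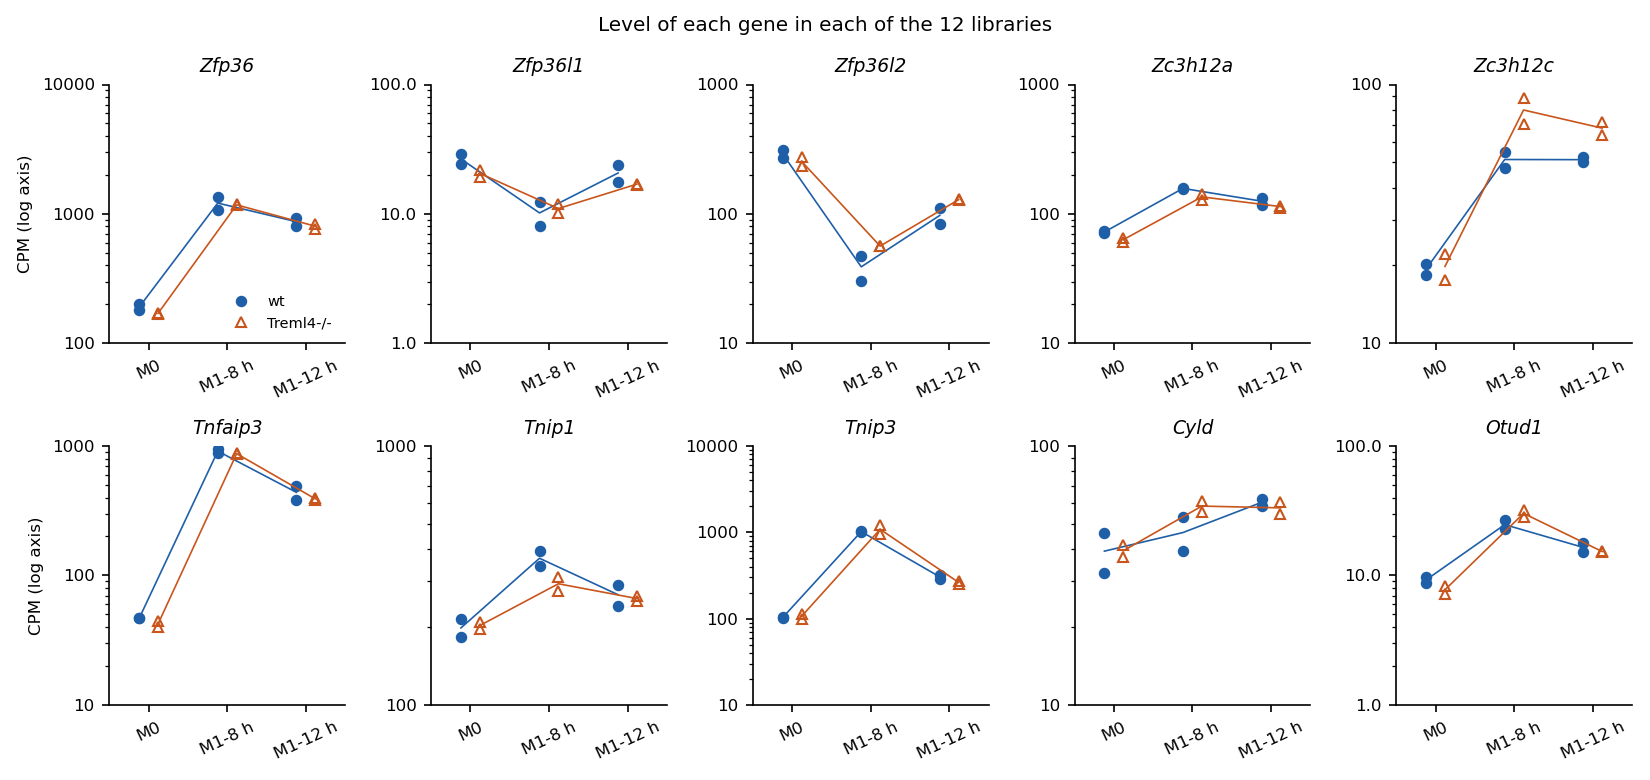
CPM of each of the 10 genes on a log axis by condition. Each point is 1 library (filled circles wt, open triangles Treml4-/-) and lines join the means of 2 libraries. Of the conditions shown, M1-8 h had the highest mean of Zfp36, Zc3h12a, Tnfaip3, Tnip1, Tnip3 and Otud1 in both genotypes. The same held for Zc3h12c, nearly level with M1-12 h in wt. Zfp36l1 and Zfp36l2 had their lowest means at M1-8 h. No time before 8 h of LPS was sampled.

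The AU-rich element binders were split. Zfp36 lies at chr7:28376784-28380253 on the minus strand. At M0 it had 182 and 199.9 CPM in wt and 169 and 172 CPM in Treml4-/- libraries. At M1-8 h it reached 1355 and 1071 CPM in wt and 1167 and 1184 CPM in Treml4-/-. At M1-12 h it had 932 and 811 CPM in wt and 771 and 838 CPM in Treml4-/-. The 4 libraries of each time point did not overlap with those of another. The log2 difference from M0 was 2.71 ± 0.08 (SE) at M1-8 h, a 6.57-fold rise with a limma adjusted p of 5.03e-11, and 2.21 ± 0.08 at M1-12 h, or 4.61-fold.

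Zfp36l2, on chr17:84183931-84187947 (minus strand), moved the other way. Its M0 levels were 309 and 272 CPM in wt and 234 and 276 CPM in Treml4-/-. They dropped to 47.6 and 30.5 CPM in wt and 56.6 and 56.3 CPM in Treml4-/- at M1-8 h, and stood at 112 and 82.9 CPM in wt and 127 and 131 CPM in Treml4-/- at M1-12 h. Every M1 library was below every M0 library, and every M1-12 h library above every M1-8 h library. The difference from M0 was -2.52 ± 0.13 on the log2 scale at M1-8 h (0.174-fold, limma adjusted p 5.07e-09) and -1.28 ± 0.13 at M1-12 h (0.413-fold). Relative to the median of all genes these were -1.80 and -0.52. Under median of ratios scaling the M1-8 h fall was -1.73 and passed, while the M1-12 h value of -0.43 did not.

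Zfp36l1, on chr12:80107754-80113013 (minus strand), was the lowest of the family. It had 28.9 and 24.3 CPM in wt and 19.2 and 22.0 CPM in Treml4-/- at M0. At M1-8 h the values were 12.3 and 8.04 CPM in wt and 10.1 and 11.9 CPM in Treml4-/-, and at M1-12 h 23.9 and 17.5 CPM in wt and 16.8 and 17.2 CPM in Treml4-/-. The M1-8 h libraries lay below all others, and the M1-12 h range overlapped with that of M0. The log2 difference was -1.09 ± 0.14 at M1-8 h and passed on the CPM scale (limma adjusted p 1.13e-05), but was -0.36 relative to the median of all genes, and neither -0.33 under median of ratios nor -0.25 under quantile normalization passed. At M1-12 h it was -0.31 and not called, and the direction turned to 0.50 under median of ratios and 0.52 under quantile normalization, both called. Of its exon bases 55.9% are shared with the opposite-strand noncoding gene Gm26669, which had at most 0.0935 CPM. The counting is not stated to use strand, so reads of the pair cannot be told apart.

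Both Regnase genes among the members rose. Zc3h12d, a relative that is not a member, had 51.6 to 59.0 CPM at M0 and 34.2 to 49.9 CPM at M1-8 h. This drop on the CPM scale was short of the fold threshold and was not called. At M1-12 h Zc3h12d had 46.5 to 76.0 CPM, a range that overlapped with that of M0. Under median of ratios scaling its log2 difference from M0 was above 0, at 0.47 at M1-8 h and 1.08 at M1-12 h. Zc3h12a (chr4:125118423-125127840, minus strand) had 71.6 and 73.5 CPM in wt and 61.0 and 65.5 CPM in Treml4-/- at M0. It had 157 and 158 CPM in wt and 142 and 128 CPM in Treml4-/- at M1-8 h, and 117 and 134 CPM in wt and 112 and 116 CPM in Treml4-/- at M1-12 h. All M1 libraries were above all M0 libraries. The log2 differences were 1.10 ± 0.06 and 0.81 ± 0.06, or 2.14-fold and 1.75-fold, with limma adjusted p of 1.03e-08 and 1.45e-07.

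Zc3h12c encodes Regnase-3, a relative found in macrophages, and lies at chr9:52111344-52168572 on the minus strand. It started lower, at 20.3 and 18.4 CPM in wt and 17.6 and 22.1 CPM in Treml4-/-. Its M1-8 h levels were 47.8 and 54.9 CPM in wt and 70.6 and 88.8 CPM in Treml4-/-, and its M1-12 h levels 50.2 and 52.3 CPM in wt and 71.7 and 64.0 CPM in Treml4-/-. With all 12 libraries, no genotype difference of Zc3h12c passed the test. Over both genotypes it rose by 1.66 ± 0.10 on the log2 scale at M1-8 h (3.15-fold, limma adjusted p 1.29e-08) and 1.54 ± 0.10 at M1-12 h (2.92-fold).

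The A20 group held the largest rises. Tnfaip3, which encodes A20 (chr10:19000910-19015657, minus strand), had 46.8 and 46.6 CPM in wt and 39.8 and 44.7 CPM in Treml4-/- at M0. At M1-8 h it reached 886 and 939.9 CPM in wt and 867 and 878 CPM in Treml4-/-. At M1-12 h it stood at 386 and 492 CPM in wt and 397 and 385 CPM in Treml4-/-. No library of one time point reached the range of another, and the rise was 19.7-fold at M1-8 h (log2 4.30 ± 0.08, limma adjusted p 8.82e-13) and 9.12-fold at M1-12 h (3.19 ± 0.08).

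Tnip3 encodes ABIN-3, an A20-binding protein known to be induced by LPS, and lies at chr6:65525313-65634040 on the plus strand. Its M0 levels were 100.5 and 105 CPM in wt and 98.5 and 114 CPM in Treml4-/-. They rose to 1002 and 1035 CPM in wt and 947 and 1220.1 CPM in Treml4-/- at M1-8 h and came back to 284 and 324 CPM in wt and 271 and 254 CPM in Treml4-/- at M1-12 h. The 3 time points did not overlap. The rise was 9.94-fold at M1-8 h (3.31 ± 0.09, limma adjusted p 1.71e-11) and 2.69-fold at M1-12 h (1.43 ± 0.09).

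Tnip1 encodes ABIN-1, which links A20 to ubiquitin chains, and lies at chr11:54910785-54962917 on the minus strand. It was already abundant at M0, with 183 and 214 CPM in wt and 209 and 196 CPM in Treml4-/-. It had 344 and 392 CPM in wt and 311 and 276 CPM in Treml4-/- at M1-8 h, and 242 and 291 CPM in wt and 252 and 263 CPM in Treml4-/- at M1-12 h. All M1 libraries were above all M0 libraries, but the M1-12 h and M1-8 h ranges overlapped. The log2 difference was 0.71 ± 0.08 at M1-8 h (1.64-fold, limma adjusted p 5.41e-06), and 0.38 ± 0.08 at M1-12 h, where the fold change of 1.30 was under the threshold. The M1-12 h value was 1.23 and called under median of ratios.

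Of the deubiquitinases Otud1 rose at both times and Cyld passed at M1-12 h. Otud1 (chr2:19657752-19660583, plus strand), an intronless gene of the ovarian tumour family, had 9.70 and 8.79 CPM in wt and 7.15 and 8.36 CPM in Treml4-/- at M0. It had 26.6 and 22.8 CPM in wt and 32.0 and 28.3 CPM in Treml4-/- at M1-8 h, and 15.2 and 17.8 CPM in wt and 15.3 in both Treml4-/- libraries at M1-12 h. The 3 time points did not overlap, and the rise was 2.98-fold at M1-8 h (1.58 ± 0.09, limma adjusted p 9.80e-09) and 1.78-fold at M1-12 h (0.83 ± 0.09).

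Cyld (chr8:88697028-88751945, plus strand) removes linear and lysine-63-linked ubiquitin chains. At M0 it had 46.1 and 32.4 CPM in wt and 37.4 and 41.4 CPM in Treml4-/-, a wide spread within wt. At M1-8 h the values were 39.4 and 53.2 CPM in wt and 55.7 and 61.5 CPM in Treml4-/-, and at M1-12 h 58.9 and 62.3 CPM in wt and 60.5 and 54.8 CPM in Treml4-/-. The M1-8 h range overlapped with that of M0 and the M1-12 h range did not. The log2 difference was 0.40 ± 0.12 at M1-8 h (1.32-fold, limma adjusted p 0.00741), short of the fold threshold, and 0.59 ± 0.12 at M1-12 h (1.502-fold, limma adjusted p 5.86e-04), which passed but not without wt M0 replicate 2 (0.46). Relative to the median of all genes these were 1.12 and 1.34. The M1-8 h value was called under median of ratios (1.18) and quantile normalization (0.93), and also without wt M0 replicate 1 (0.53), without wt M1-8 h replicate 1 (0.51) or with no minimum fold.

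**Figure D2:**
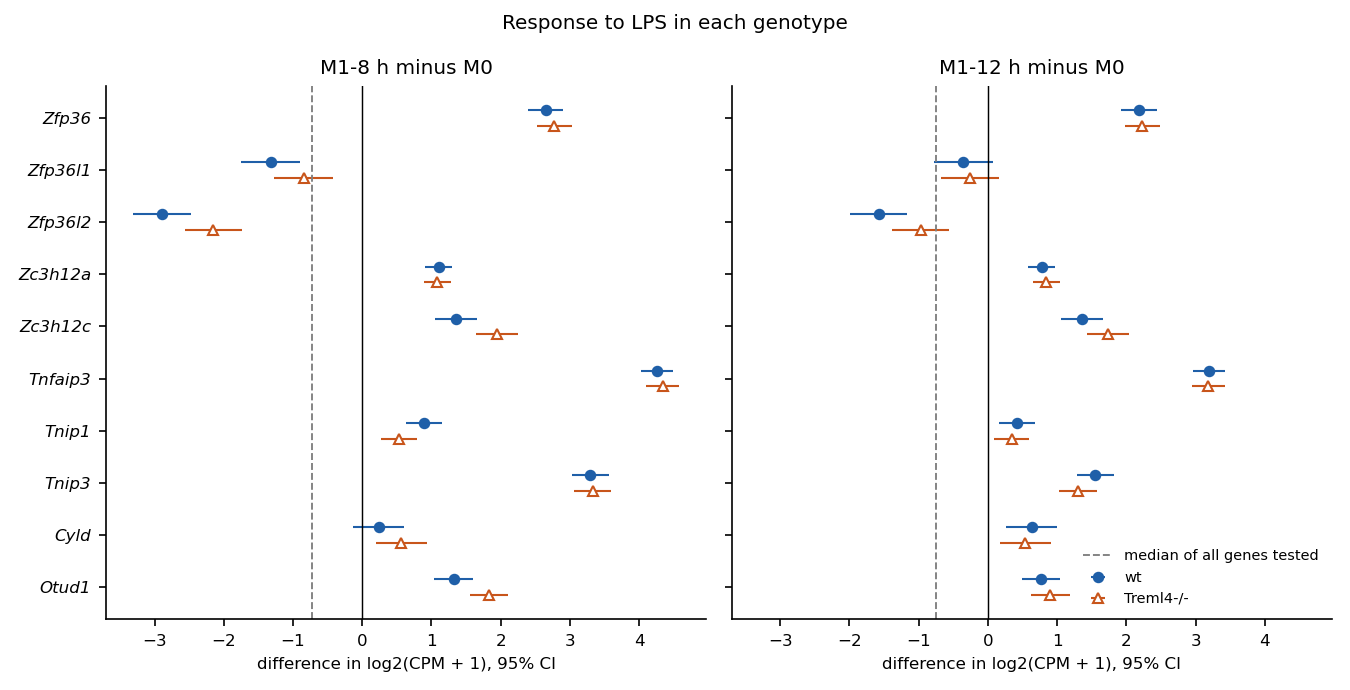
Difference in log2(CPM + 1) from M0 at M1-8 h (left) and M1-12 h (right) for each gene, in wt (filled circles) and Treml4-/- (open triangles), with 95% confidence intervals of the limma fit. The dashed line is the median of all genes tested in both genotypes together, -0.72 at M1-8 h and -0.76 at M1-12 h, and Zfp36l1 at M1-12 h lies to the right of it but left of 0.

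The second comparison asks which brakes were still moving between 8 and 12 h. From M1-8 h to M1-12 h 2 of the 10 genes rose (Zfp36l1 and Zfp36l2) and 4 fell (Zfp36, Tnfaip3, Tnip3 and Otud1), against 13.5% of all genes higher and 18.7% lower. Tnip3 fell most, by 1.89 ± 0.09 on the log2 scale, to 0.270 of its M1-8 h level, followed by Tnfaip3 at -1.11 ± 0.08 and Otud1 at -0.74 ± 0.09. Zfp36l2 rose 2.37-fold (1.25 ± 0.13) and Zfp36l1 1.71-fold (0.78 ± 0.14). Zfp36 fell by 0.51 ± 0.08, close to the fold threshold, and its call was lost under median of ratios (-0.46), under quantile normalization (-0.47) and when wt M1-8 h replicate 1, wt M1-12 h replicate 2 or Treml4-/- M1-12 h replicate 1 was left out (-0.42 at the smallest). The other 4 genes were not called, Zc3h12a at -0.29, Tnip1 at -0.33, Zc3h12c at -0.11 and Cyld at 0.19. These genes share M1-8 h libraries with the first comparison. The all-gene median was -0.06 here, and the scaling alternatives moved it by less than 0.1.

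The third comparison asks whether loss of Treml4 changed the brakes, with differences written as wt minus Treml4-/-. No member was called at M0 (0.0993% of all genes called, 12 genes), at M1-8 h (0.091%, 11 genes), at M1-12 h (0.132%, 16 genes) or for the mean of the time points (0.414%, 50 genes). In the same limma fits 405, 2539, 912 and 2434 of all genes had an unadjusted p under 0.05. The mean of the time points takes every library as independent. The labels number replicates alike at each time but do not say whether same-numbered libraries of a genotype share a culture. If they do, the p-values and the count of genes for the mean may be too favourable. For the genotype effect on the response itself, no member was called at M1-8 h (0.00827%, 1 gene) or at M1-12 h (0.00827%, 1 gene), with 806 and 462 genes at an unadjusted p under 0.05. The neutrophil sum at M0 was 116 and 43.2 CPM in wt and 109 and 137 CPM in Treml4-/-, ranges that overlapped, and none of the 6 tested markers was called between genotypes.

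Zc3h12c had the largest genotype difference among members at M1-8 h. It was -0.62 ± 0.14 on the log2 scale (95% interval -0.92 to -0.32, limma adjusted p 0.123), the wt libraries holding 0.651 of the Treml4-/- level. The difference was -0.40 at M1-12 h (limma adjusted p 0.480) and -0.02 at M0. The mean of the time points was -0.35 (limma adjusted p 0.0762). The genotype effect on the M1-8 h response was -0.59 with an interval of -1.02 to -0.17 and a limma adjusted p of 0.729. Without Treml4-/- M1-8 h replicate 1 the M1-8 h difference was -0.78 and was called (limma adjusted p 0.0238), in a fit that called 599 genes in all.

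Zfp36l2 was also lower in wt after LPS, at -0.55 ± 0.19 at M1-8 h (limma adjusted p 0.175) and -0.42 at M1-12 h, against 0.19 at M0. The genotype effect on its M1-8 h response was -0.74 (limma adjusted p 0.729). Tnip1 and Zc3h12a went the other way at M1-8 h, with 0.33 ± 0.12 (limma adjusted p 0.179) and 0.22 ± 0.09 (limma adjusted p 0.209). For Zc3h12a the mean difference over the 3 time points was 0.18 (limma adjusted p 0.130). Otud1 had a genotype effect on the M1-8 h response of -0.51 (limma adjusted p 0.729). None of these passed the test.

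For the 3 most induced genes the intervals at M1-8 h bound the genotype difference. They ran from -0.22 to 0.29 for Zfp36, from -0.17 to 0.30 for Tnfaip3 and from -0.35 to 0.19 for Tnip3 on the log2 scale. The response of Tnfaip3 was 19.2-fold in wt and 20.2-fold in Treml4-/-, and that of Tnip3 9.82-fold and 10.1-fold. For Cyld the M1-8 h rise was 0.24 in wt and 0.56 in Treml4-/-, passing only in the latter, and the difference between them (-0.32, limma adjusted p 0.754) did not pass.

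**Figure D3:**
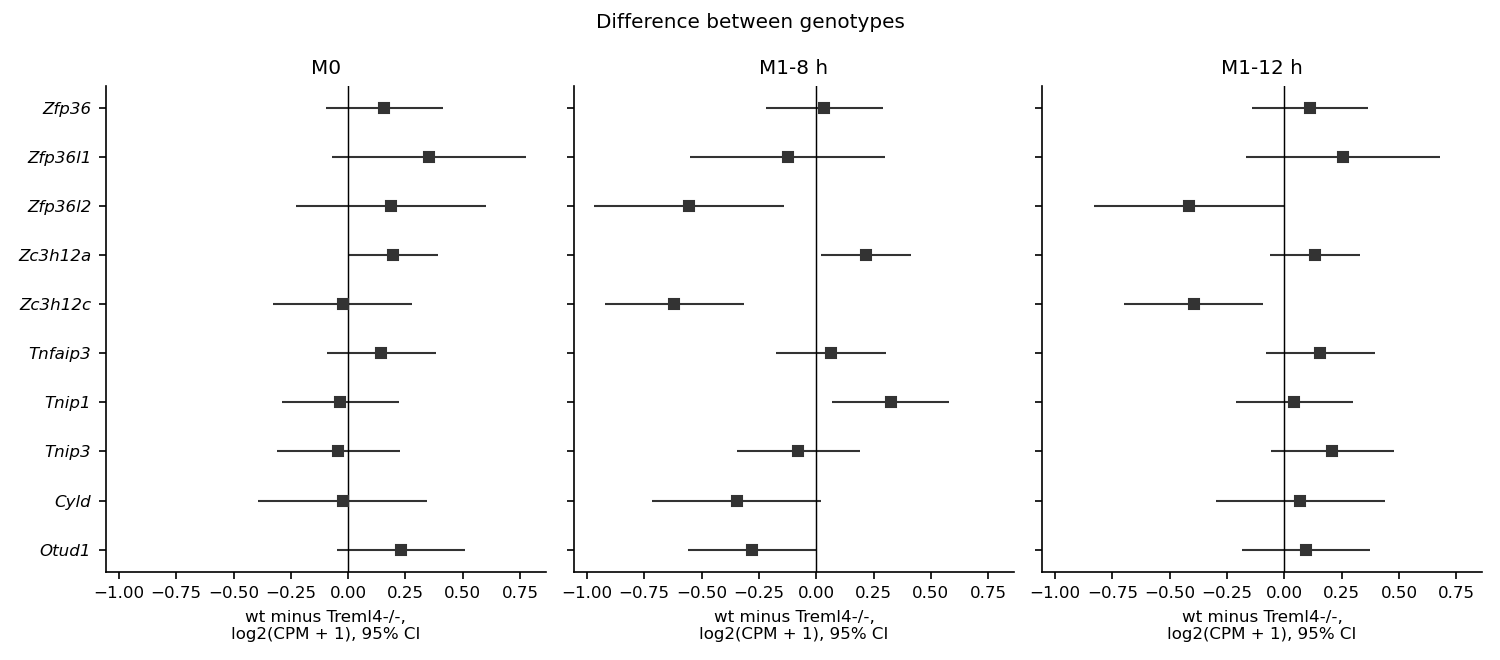
Difference in log2(CPM + 1), wt minus Treml4-/-, for each gene in the 3 conditions, with 95% confidence intervals of the limma fit that are not adjusted for the number of genes tested. Zc3h12c and Zfp36l2 lie left of 0 at M1-8 h and M1-12 h, and no difference shown was called.

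Levels can be compared between genes only per length, here as CPM per kb of the transcript with the longest coding part. At M0 Zfp36l2 ranked highest with a mean of 77.3 CPM per kb over 4 libraries, followed by Tnip1 (70.7), Tnip3 (67.7) and Zfp36 (64.8), 4 genes whose ranges overlapped. Zc3h12a (24.6) and Tnfaip3 (10.1) came next, then Zfp36l1 (7.89), whose range overlapped with that of Tnfaip3, and Cyld (4.92). Otud1 was lowest at 3.002 with a range that overlapped with that of Zc3h12c (3.20). At M1-8 h the order was Tnip3 (681), Zfp36 (428), Tnfaip3 (202), Tnip1 (117) and Zc3h12a (53.2), 5 genes whose ranges did not overlap, and Zfp36l2 had dropped to the sixth place at 13.5. At M1-12 h Zfp36 was first at 300.4 and Tnip3 second at 184, and Tnfaip3 (93.8) and Tnip1 (92.4) overlapped. Tnip3 depends most on the length used, since its chosen transcript has 1543 bases and all its annotated exons together 10916. With the latter length for every gene it would lose the first place at M1-8 h to Zfp36. Tnfaip3 (4422 and 7226 bases) and Cyld (7990 and 12576 bases) depend on it less.

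**Figure D4:**
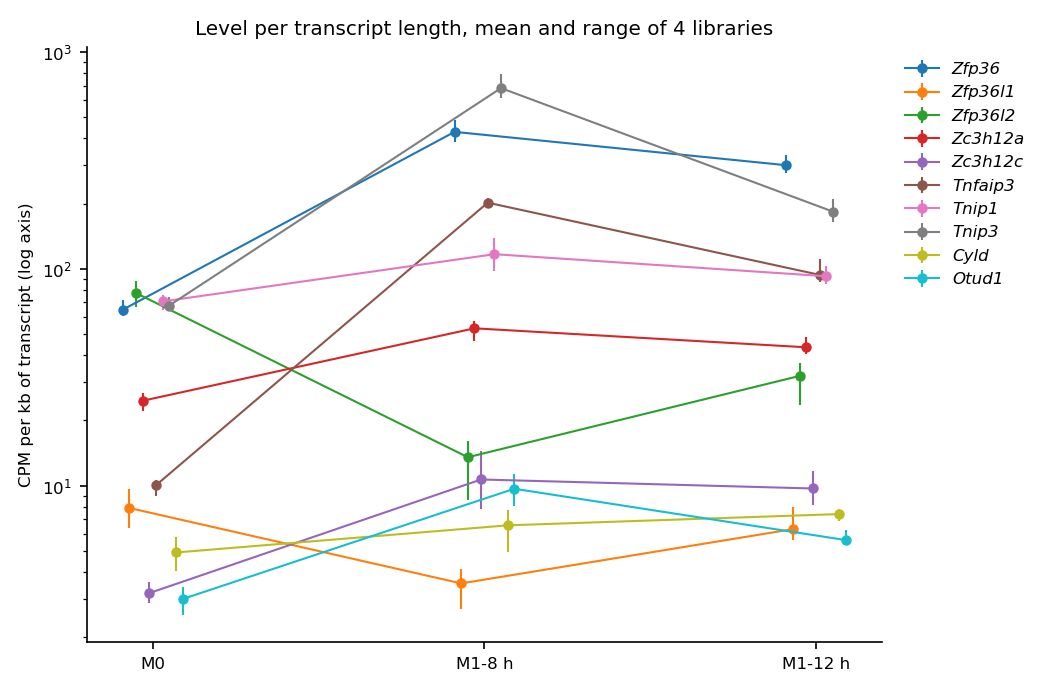
Mean CPM per kb of transcript on a log axis by condition for each of the 10 genes, with bars from the lowest to the highest of 4 libraries (both genotypes). The lines of Zfp36l2 and Tnfaip3 cross between M0 at 77.3 and 10.1 and M1-8 h at 13.5 and 202.

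The patterns over the 12 libraries were compared after centring each gene. The 2 members most alike were Zc3h12a and Tnip1, with a root mean square difference of 0.218 on the log2 scale, and the least alike Zfp36l2 and Tnfaip3, at 2.85. Of all other tested genes, the nearest was Brd2 for Zc3h12a (0.0445), Ptpn1 for Tnip1 (0.0778), Lats1 for Cyld (0.1001) and Mgat5 for Zfp36l2 (0.110). It was Otud1 with Sap30 (0.114), Tnfaip3 with Lpar1 (0.115), Tnip3 with Hivep2 (0.116), Zc3h12c with Zfp281 (0.129), Zfp36 with B4galt5 (0.134) and Zfp36l1 with Tpd52 (0.174). These values describe likeness across 12 libraries that share the 2 LPS steps, and no test was made.

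The machinery that the brakes work with was described with 6 lists. Of 13 mRNAs that Zfp36 or Zc3h12a are known to act on, 11 passed the filter on low values. All 11 were higher at both M1-8 h and M1-12 h. Of these 11, Il6, Il12b, Il1b and Ptgs2 passed the filter only with the LPS libraries, so that they had to be higher. The other 7 also passed in the M0 libraries alone, and all 7 were higher, against 17.1% and 16.3% of all genes tested. Il23a and Csf2 had at most 1 read in any M0 library, did not pass the filter on low values and were not tested. From 8 to 12 h 8 of the 11 fell, against 18.7% of all genes tested, the 11 again holding the 4 genes that passed only with the LPS libraries. Under quantile normalization 5 of the 11 were called lower. Ptgs2, the inducible cyclooxygenase, had 0.366 to 1.14 CPM at M0 and 1866 to 2909 CPM at M1-8 h (log2 10.39), and was at -0.34 between 8 and 12 h, which did not pass. Il12b, a subunit of IL-12 and IL-23, had 0.0193 to 0.0787 CPM at M0, 261 to 337 CPM at M1-8 h and 46.0 to 68.8 CPM at M1-12 h. Il6 had at most 0.0815 CPM at M0, 119 to 230.0 CPM at M1-8 h and 28.7 to 72.8 CPM at M1-12 h, and Il1b 0.285 to 0.924, 187 to 345 and 128 to 297 CPM. Il6 and Il12b had 0 to 4 reads at M0, so the size of their log2 difference is set by the pseudocount. Il1b had 14 to 47 reads and Ptgs2 19 to 58 reads at M0, levels near or under the pseudocount of 1 CPM, which makes their log2 differences smaller than those of the CPM. Tnf, singled out after its values were seen as the classical Zfp36 target, had 34.7 to 49.1 CPM at M0, 569 to 659 CPM at M1-8 h and 146 to 196 CPM at M1-12 h. Of the 13 listed mRNAs 12 held the heptamer TATTTAT, against 27.576% of the tested genes with a 3′ UTR. Their median was 9.13 ATTTA pentamers per kb of 3′ UTR, against 2.75 in the 10 brakes and 1.23 in all tested genes. The list was chosen for known action of Zfp36, a binder of such elements, or Zc3h12a. Its richness in these elements is therefore no independent result.

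The counts of the other lists are read against all genes tested, of which 17.1% were higher and 59.8% lower at M1-8 h, and 31.1% and 31.4% under median of ratios. The genes of mRNA decay were near these shares on the CPM scale. The deadenylase list held Cnot genes, Pan2 and Pan3, and also Parn, Btg1, Btg2, Tob1 and Tob2, which are not subunits of the CCR4-NOT or PAN complexes. Of its 17 tested genes 12 were lower (70.6%) and 3 higher (17.6%) at M1-8 h, with a median of -0.88 against -0.72 for all genes. Under median of ratios 3 were lower (17.6%) and 4 higher (23.5%), with a median of -0.10. The largest changes were in Parn (-1.74), a poly(A)-specific ribonuclease, Cnot6l (-1.69), a catalytic subunit, Tob1 (-1.34), which bridges to the deadenylase, and Cnot10 (-1.22). Of 21 tested genes of decapping and exonucleolytic decay 13 were lower (61.9%) and 4 higher (19.0%), with a median of -0.71. By median of ratios 7 were lower (33.3%) and 6 higher (28.6%). The exosome subunits Exosc2 (-1.99), Exosc7 (-1.98), Exosc5 (-1.95) and Exosc1 (-1.85) led the list, and remained below 0 under median of ratios at -1.27, -1.34, -1.22 and -1.18.

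The list of other regulators of cytokine mRNA held genes of RNA-binding proteins and Mapkapk2, which encodes a kinase. Of its 11 tested genes 5 were higher (45.5%) and 3 lower (27.3%) at M1-8 h, against 17.1% and 59.8% of all genes. Under median of ratios 7 were higher (63.6%) and 2 lower (18.2%), against 31.1% and 31.4%. Arid5a, which protects Il6 mRNA, rose by 4.79 on the log2 scale and N4bp1 by 1.75, while Tial1 (-1.62) and Khsrp (-1.32) were lower. Of 16 tested A20 partners and other ubiquitin editors 5 were higher (31.2%) and 6 lower (37.5%), against the same 17.1% and 59.8%. With median of ratios scaling 8 were higher (50%) and 1 lower (6.25%), against 31.1% and 31.4%. Usp18, an interferon-induced protease that removes ISG15, went from 5.90 to 7.64 CPM at M0 to 752 to 908 CPM at M1-8 h (log2 6.72). Tax1bp1, an A20 adaptor, rose by 2.45 and Usp25 by 1.52. Otulin, which cuts linear ubiquitin chains, fell from 89.3 to 93.9 CPM at M0 to 14.7 to 17.0 CPM (log2 -2.43, and -1.65 under median of ratios).

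Of 16 tested ubiquitin ligases and substrates of NF-kB signalling 8 were higher (50%) and 1 lower (6.25%) at M1-8 h, with a median of 0.41, against 17.1%, 59.8% and -0.72 for all genes. With that scaling by median of ratios 14 were higher (87.5%) and 0 lower, against 31.1% and 31.4%. Peli1 (2.77), Ripk2 (2.57), Rnf31 (2.04) and Birc3 (1.51) had the largest changes. No gene of the 6 lists was called between genotypes or for the genotype effect on the response.

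**Figure D5:**
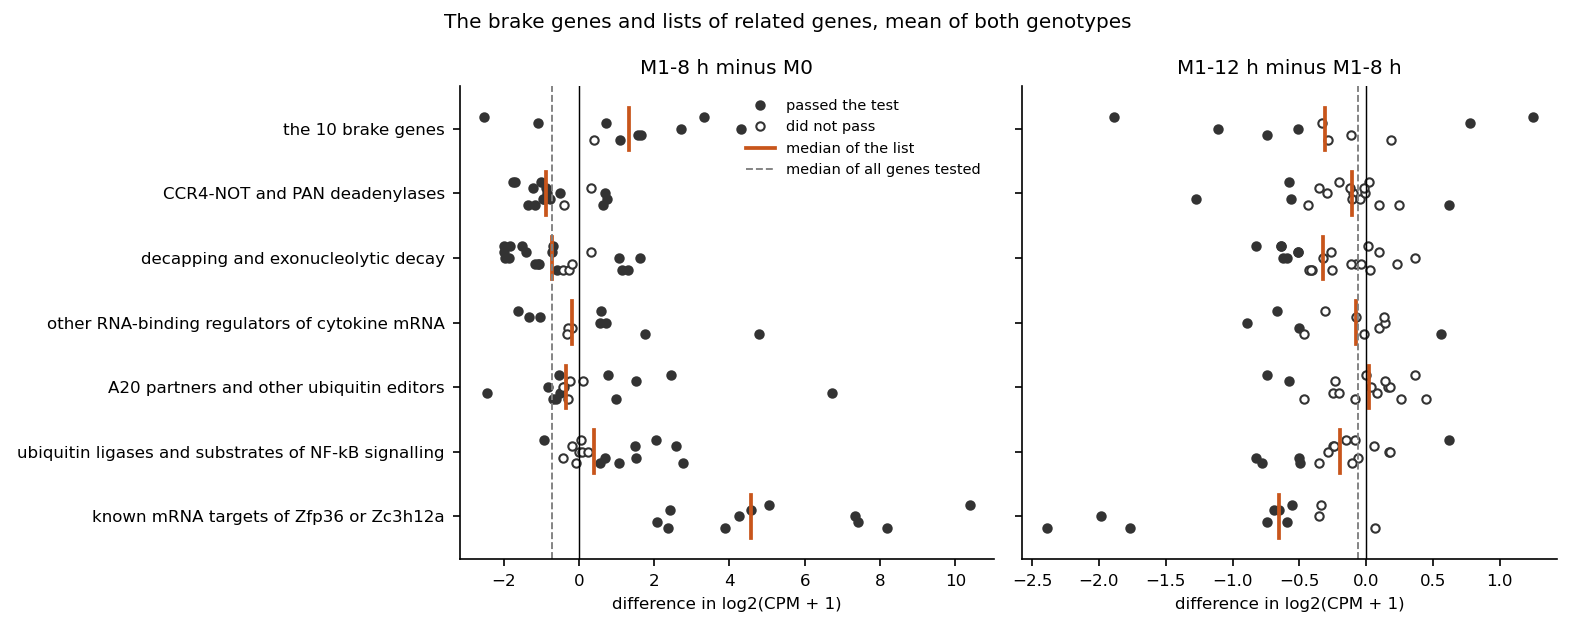
Difference in log2(CPM + 1) for each gene of the 10 brakes and of 6 lists of related genes, at M1-8 h against M0 (left) and M1-12 h against M1-8 h (right), over both genotypes. Filled points passed the test, orange bars are list medians and dashed lines the median of all genes tested. The 11 tested target mRNAs, 4 of which passed the filter only with the LPS libraries, lie to the right of 0 on the left. On the right 8 of the 11 were called lower, against 18.7% of all genes, and 5 under quantile normalization.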

How the data were processed

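Total RNA of 12 BMDM libraries was sequenced after poly(A) selection with a stranded kit. The authors aligned reads with STAR and counted them on genes with Subread, per the methods and the submitters' processing notes, which name mm10. The annotation and the strand setting of the counting are not given in the sources used here. They deposited log2 CPM, counts normalized to the library total on the log2 scale, with 0.25 reads added at the average depth. The analysis had been planned for CPM, so the log2 values were turned back into CPM. All values then gave whole reads within 0.01 of a read, and intervals on them would cover counting error only.

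Groups and replicate numbers came from the sample labels. The test was limma (3.58.1, R 4.3.3) on log2(CPM + 1), for the 12086 genes that reached 1 CPM in 2 or more libraries. All 12 libraries entered with a mean for each condition, a trend in the variance and Benjamini-Hochberg adjustment. Fold changes are on the log2(CPM + 1) scale, which understates changes of low genes. A call needed a 1.4-fold change and an adjusted p under 0.05, the thresholds of the study. LPS contrasts are means of both genotypes and genotype contrasts are wt minus Treml4-/-. Replicates were kept apart, since chi-square values of their counts, divided by the degrees of freedom, ranged from 12.05 to 55.61 where sampling alone gives about 1.

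The members and lists were chosen with earlier results of these data known. Named were all members, Treml4, the up to 4 genes of each list with the largest absolute change at M1-8 h among those called, and the gene nearest to each member in pattern. Further list genes, among them Zc3h12d and Mapkapk2, are named outside this rule to say what the lists held. Positions and 3′ UTRs came from GENCODE M21 (GRCm38) and promoters from RefSeq (GRCm38.p6). Alternatives were another pseudocount, the deposited log2 values, no filter or one at 5 CPM, a replicate block (also within genotype), median of ratios and quantile normalization, no variance trend, no minimum fold, voom on the recovered reads, only the libraries of a contrast, and leaving out each library. Tables and figures were made with Python 3.11.15, numpy, pandas and matplotlib.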

Additional observations from a re-analysis of the deposited data

How the results depend on the processing

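Across 24 alternatives the counts of members called kept within 1.5 times their value except as follows. Under median of ratios and under quantile normalization, the members lower at M1-8 h went from 2 to 1 (Zfp36l2). The members lower at M1-12 h went from 1 to 0 under median of ratios and to 2 with no minimum fold. Zfp36l1 at M1-12 h turned from -0.31 to 0.50 under median of ratios and 0.52 under quantile normalization. Leaving out each library in turn gave 0 to 1 members called between genotypes at M1-8 h, the 1 being Zc3h12c without Treml4-/- M1-8 h replicate 1. By construction a scaling shifts all genes of a library. The causes of the other changes were not tested.

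With the replicate block, 7 members were higher and 2 lower at M1-8 h, 7 higher and 1 lower at M1-12 h, and 0 were called between genotypes, as without it. Same-numbered libraries of the 2 genotypes deviated from their group means with correlations of -0.264 (M0), 0.297 (M1-8 h) and 0.0563 (M1-12 h), and those of the same genotype at 2 times with correlations of -0.272 to 0.462. Since not every pair was over 0.1, the numbers were not taken to pair samples. The replicate block within genotype gave the same counts of members for LPS. For the genotype differences at single times and for their mean it was not used.

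The number of all genes called between genotypes varied with the setting, from 7 to 220 at M0 (12 as reported), 5 to 599 at M1-8 h (11), 6 to 79 at M1-12 h (16) and 17 to 183 for the mean (50). The highest counts came without wt M0 replicate 1 at M0 and for the mean, without Treml4-/- M1-8 h replicate 1 and without wt M1-12 h replicate 1. With no minimum fold 3159 genes were higher and 4132 lower from 8 to 12 h, against 1630 and 2255. For the effect on the response the counts were 0 to 3 at M1-8 h and 0 to 33 at M1-12 h (1 each). With 2 libraries a condition, the intervals of the genotype differences are wide, and a value that misses the threshold does not show that the genotypes are alike.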
